A study of Mus musculus with 6 samples.

Results

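The SLC25 carriers are the proteins that move metabolites, nucleotides and cofactors through the mitochondrial inner membrane, and 47 *Slc25a* genes were found among the 23276 gene symbols listed for mouse kidney. The members were the genes whose symbol is Slc25a followed by a number, and for each of them the most abundant of its listed transcripts was taken, out of 103 in all. The rule takes in *Slc25a17*, which sits in the peroxisomal membrane, and *Slc25a46*, a protein of the outer mitochondrial membrane. Carriers named otherwise, such as the uncoupling proteins *Ucp1*, *Ucp2* and *Ucp3*, fall outside it.

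The inner membrane is closed to charged molecules, and most SLC25 proteins exchange one substrate for another across it. ATP made in the matrix leaves against ADP, and phosphate enters with protons to be joined to ADP. Other members carry the acids of the TCA cycle, amino acids, acylcarnitines for fatty acid oxidation, and cofactors such as coenzyme A and NAD that matrix enzymes need. Kidney tubules, above all the proximal tubule, are rich in mitochondria.

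RNA of whole kidneys from 6 mice at postnatal day 22 was sequenced, 3 labelled *Pkd1* F/RC SKO (KspCre with *Pkd1* F/RC) and 3 labelled *Pkd1* F/RC DKO (KspCre with *Pkd1* F/RC and also miR-17-92 F/F). All 6 mice therefore carried KspCre, a Cre recombinase active in kidney tubules, and *Pkd1* with the floxed allele on one chromosome and the hypomorphic RC allele, present in every cell, on the other. The DKO mice were also homozygous for a floxed miR-17-92 cluster. By this design, *Pkd1* and, in DKO, the cluster are recombined in cells where KspCre is active, while other cells of the kidney keep them. Whether and in which cells this happened was not checked here. Levels are in CPM, counts scaled to their total over all transcripts, in which a read may count several times. The level used for each transcript is the authors' mean over the 6 kidneys, for which no SD can be given. It joins both genotypes, and no kidney without the *Pkd1* F/RC genotype was among the 6, so the levels below are those of *Pkd1*-mutant kidneys. The difference between DKO and SKO kidneys was not analysed here, because the columns that hold it are the authors' own comparison and no value of a single kidney was at hand. The 2 targeted genes, *Pkd1* and *Mir17hg* (the host transcript of the cluster), had means of 31.8 and 4.21 CPM, which cannot show whether either fell in its group. The genotype labels were therefore not checked against these genes here.

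The miR-17-92 cluster, floxed in the kidneys labelled DKO, gives 6 mature miRNAs examined here, which share 4 seeds, the bases by which a miRNA pairs with a 3′-UTR. Their sequences are shown because the seed decides which letters were sought in the carriers. They were taken from RefSeq (GRCm38.p6, chromosome 14, plus strand), and capitals mark the seed, bases 2 to 8.
miR-17-5p: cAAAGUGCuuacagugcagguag
miR-20a-5p: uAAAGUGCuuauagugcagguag
miR-18a-5p: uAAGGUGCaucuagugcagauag
miR-19a-3p: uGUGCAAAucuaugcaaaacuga
miR-19b-3p: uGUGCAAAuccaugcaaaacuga
miR-92a-3p: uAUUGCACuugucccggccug

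The letters sought were GCACTTT for miR-17 and miR-20a, GCACCTT for miR-18a, TTTGCAC for miR-19a and miR-19b, and GTGCAAT for miR-92a, on the transcript strand only. Of 46 carriers with an annotated 3′-UTR, 6 held a miR-17 match, which is 13.0% of them. Among all 19015 genes with a 3′-UTR the share was 11.0%. A miR-19 match was held by 4 carriers (8.70%) against 10.03% of all genes, a miR-18 match by 6 (13.0%) against 7.21%, and a miR-92 match by 4 (8.70%) against 5.98%. Counted per kb of 3′-UTR, miR-17 matches numbered 0.0913 in carriers and 0.0996 in all genes, and miR-18 matches 0.122 and 0.0608. For miR-19 the values were 0.0608 and 0.0887, and for miR-92 they were 0.0761 and 0.0507. The carriers' median 3′-UTR was 1020 nt and that of all genes 787 nt. A match is a description of letters and does not show that the miRNA acts there.

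The 6 carriers with a miR-17 match fall in 5 substrate groups. They are *Slc25a10* (dicarboxylates against phosphate), *Slc25a13* (citrin, aspartate against glutamate), *Slc25a27* (UCP4), *Slc25a36* (pyrimidine nucleotides), *Slc25a40* (glutathione) and *Slc25a44* (branched-chain amino acids). Each held 1 match. The sites are shown with 8 bases on either side, in mm10 coordinates of the whole stretch, and capitals mark the match, with the A that follows it where there is one, since matches with that A are commonly classed apart.
Slc25a10 (chr11:120498624-120498646, plus strand): acacacaaGCACTTTgtcacaag
Slc25a13 (chr6:6041936-6041958, minus strand): atcctttgGCACTTTgcccacaa
Slc25a27 (chr17:43643470-43643492, minus strand): agggggcaGCACTTTAtctcttt
Slc25a36 (chr9:97077700-97077722, minus strand): ttgtgaatGCACTTTgtggcctt
Slc25a40 (chr5:8454558-8454580, plus strand): agcaaaaaGCACTTTAtcacgtt
Slc25a44 (chr3:88411135-88411157, minus strand): cacttcctGCACTTTAttgagag

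In *Slc25a27*, *Slc25a40* and *Slc25a44* the match was followed by A, so 3 of 46 carriers (6.52%) held the longer form, against 3.30% of all genes. With the shorter letters CACTTT, matching bases 2 to 7, 22 carriers (47.8%) had a match against 33.5% of all genes. Per kb of 3′-UTR, the longer form numbered 0.0456 in carriers and 0.0266 in all genes. The shorter letters numbered 0.548 and 0.427. The matches of *Slc25a27* and *Slc25a13* began 121 and 196 bases after the stop codon. That of *Slc25a44* began at base 1557 of a 3′-UTR of 2207 nt. The 6 carriers had mean levels between 0.888 CPM per kb of transcript (*Slc25a27*) and 37.4 CPM per kb (*Slc25a10*).

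Among the 4 carriers with a miR-19 match were *Slc25a20* (carnitine against acylcarnitine), *Slc25a24* (ATP-Mg against phosphate) and *Slc25a48*. All 4 matches were followed by A, which gives a share of 8.70% against 4.496% of all genes. Per kb of 3′-UTR, matches followed by A numbered 0.0608 in carriers and 0.0373 in all genes. The matches of these 3 named carriers are shown in the same way.
Slc25a20 (chr9:108684566-108684588, plus strand): aggctcctTTTGCACAttctttc
Slc25a24 (chr3:109166997-109167019, plus strand): aagtctacTTTGCACAgtttatc
Slc25a48 (chr13:56472008-56472030, plus strand): gagccgacTTTGCACAgcgcagc

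No carrier held matches to both miR-17 and miR-19. The match in *Slc25a20* lay 61 bases from the end of a 3′-UTR of 747 nt, and that in *Slc25a48* began 95 bases after the stop codon. *Slc25a36* held a miR-92 match that ended 29 bases before its miR-17 match began. It is the closest pair of matches among the carriers, and its first element is this one.
Slc25a36, miR-92 match (chr9:97077736-97077758, minus strand): tacactttGTGCAATggctttct

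*Slc25a32*, a folate and FAD carrier, held the most matches, 3 for miR-18 and 2 for miR-92, in the longest 3′-UTR of the family (4739 nt). *Slc25a15*, the ornithine carrier of the urea cycle, held 1 match each for miR-18 and miR-92. A miR-18 match was also present in *Slc25a16*, *Slc25a23*, *Slc25a45* and *Slc25a48*, and a miR-92 match in *Slc25a51*. In all, 16 carriers held at least 1 of the 23 matches, and no matches overlapped. Those 16 had a median 3′-UTR of 1858 nt, and the 30 others with a 3′-UTR had 710 nt. The phosphate carrier *Slc25a3* and the ADP/ATP carriers *Slc25a4* and *Slc25a5* held none.

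**Figure D1:**
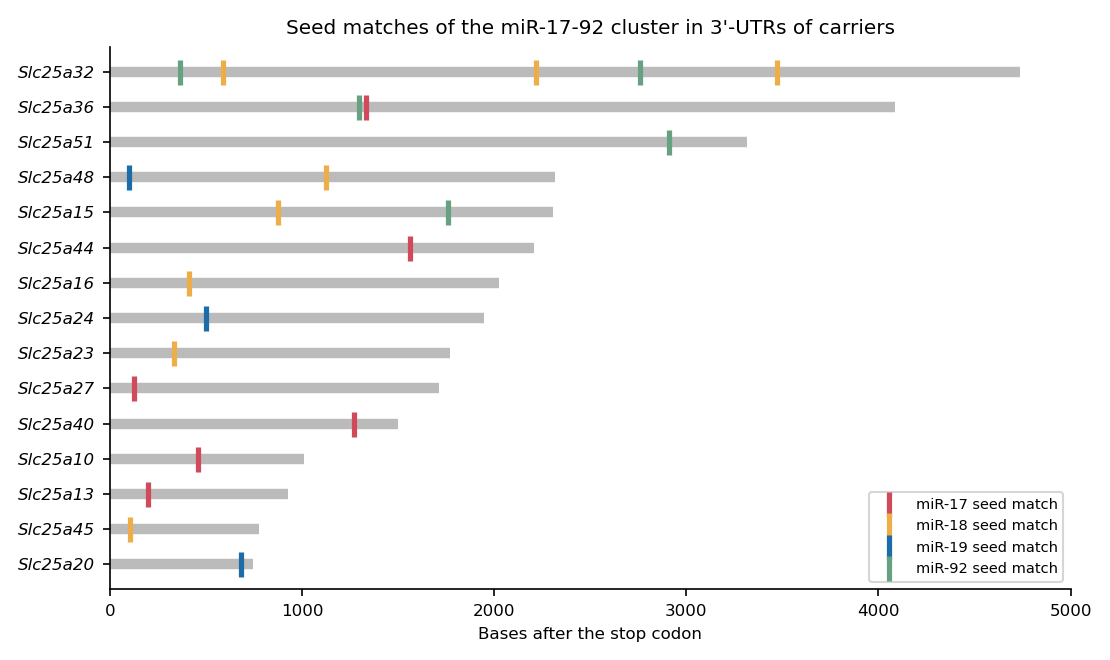
3′-UTRs of 15 carriers with a seed match, drawn to scale from the stop codon (x axis, bases), with each of their 22 matches as a coloured tick. *Slc25a32* carried 5 ticks, and in *Slc25a36* the miR-92 and miR-17 ticks stood 29 bases apart.

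Most carriers were present in these *Pkd1*-mutant kidneys. A mean of at least 1 CPM was reached by 41 of 47 carriers (87.2%), against 61.8% of the 20470 genes with a RefSeq mRNA. Of these 41, 28 had at least 10 CPM and 3 at least 100 CPM. To compare genes with each other, the CPM of the highest RefSeq mRNA of a gene was divided by the length of its annotated transcript. A plain CPM value given beside it is that of the gene's highest transcript, which was an assembled one in 20 carriers. The values per kb and in CPM can then rest on different transcripts. On this scale the median level of the carriers was 5.15 CPM per kb, and that of all 20262 genes with a length was 1.39 CPM per kb. The carriers above that median numbered 34. Transcript length differed little, with a median of 2480 nt in carriers and 2521 nt in all genes. The spread between kidneys is unknown, so neighbours in any order of levels below cannot be told apart by an error.

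**Figure D2:**
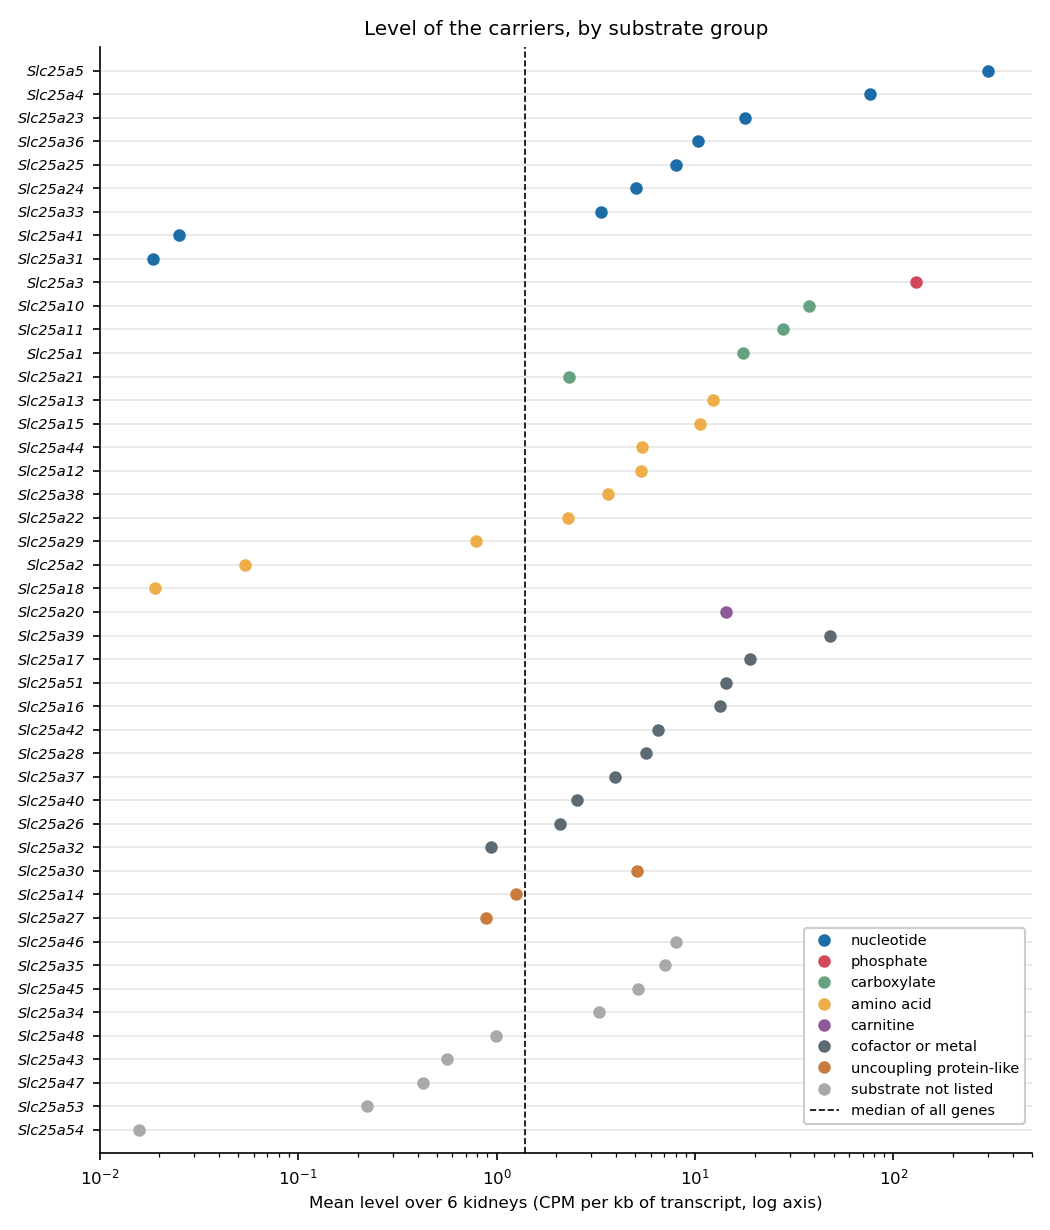
Mean level of 46 carriers over the 6 kidneys in CPM per kb of transcript (log axis), grouped and coloured by substrate, 1 point per gene. *Slc25a5* was highest at 301 CPM per kb, and 13 of the 46 points lie left of the dashed line, the median of all genes at 1.39 CPM per kb.

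The nucleotide carriers held the largest share of the family's expression. Their 9 genes made up 42.0% of the summed CPM of all carriers and 49.6% when levels were divided by length. *Slc25a5*, which encodes the widely expressed ADP/ATP carrier ANT2, was the highest of all carriers at 301 CPM per kb of transcript (373 CPM). Its level was above that of 99.8% of genes. *Slc25a5* lies on the X chromosome (mm10, 36795651 to 36798807). *Slc25a4*, the ADP/ATP carrier that prevails in heart and muscle (ANT1, chromosome 8, 46206797 to 46211284), followed in this group with 76.0 CPM per kb (146 CPM), so that the level of *Slc25a5* was 3.96 times that of *Slc25a4* per kb. *Slc25a31*, the ADP/ATP carrier of the testis (ANT4), was at 0.0394 CPM, near the lowest value in the table, 0.0263 CPM. All 3 testis genes looked at (*Prm1*, *Prm2*, *Tnp1*) were at that lowest value.

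The level of *Slc25a5* is less certain than the others. Of the windows of 51 bases in its transcript, the read length, 45.6% were also found in transcripts of 9 other annotated genes, chiefly *Gm5560*. Matches on either strand were counted here, and genes that overlap a carrier in the genome were not set aside. Alignments of low mapping quality had been discarded by the authors, and how far this changed its level was not tested. The corresponding share was 3.84% for *Slc25a3*, no window of *Slc25a4* was shared, and 4 of 47 carriers had over 10%, the other three being *Slc25a33* (12.6%), *Slc25a36* (11.7%) and *Slc25a40* (10.2%).

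The ATP-Mg/phosphate carriers set the total amount of adenine nucleotides in the matrix, and 3 of the 4 were well expressed. *Slc25a23* had 17.9 CPM per kb (60.0 CPM), *Slc25a25* 8.06 CPM per kb (29.8 CPM) and *Slc25a24* 5.07 CPM per kb (17.4 CPM). All 3 have a part that binds calcium. *Slc25a41*, which lacks it, was at 0.0307 CPM. The pyrimidine nucleotide carriers *Slc25a36* and *Slc25a33* had 10.3 and 3.38 CPM per kb. In CPM, *Slc25a33* had 6.37, and *Slc25a36* had 53.9 in its RefSeq mRNA and 74.8 in an assembled transcript.

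A single gene, *Slc25a3*, carries the phosphate used for ATP synthesis, and it was second in the family. Its level was 129 CPM per kb (209 CPM), above 99.2% of genes, and it lies on chromosome 10 from 91116574 to 91124059. It held 12.4% of the summed carrier CPM and 15.2% per kb. *Slc25a5*, *Slc25a3* and *Slc25a4*, which supply ATP synthase with phosphate and ADP, were the 3 highest carriers on both scales and together held 43.2% of the summed CPM and 59.6% per kb.

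The 4 carboxylate carriers were all present and held 9.42% of the summed carrier CPM. *Slc25a10*, which exchanges malate or succinate for phosphate, had 37.4 CPM per kb (76.1 CPM). *Slc25a11*, the 2-oxoglutarate/malate carrier of the malate-aspartate shuttle, had 27.9 CPM per kb (47.7 CPM). *Slc25a1*, which exports citrate to the cytosol for lipid synthesis, had 17.4 CPM per kb (29.0 CPM). *Slc25a21*, the oxoadipate carrier used in lysine breakdown, was lowest with 2.31 CPM per kb (6.03 CPM).

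**Figure D3:**
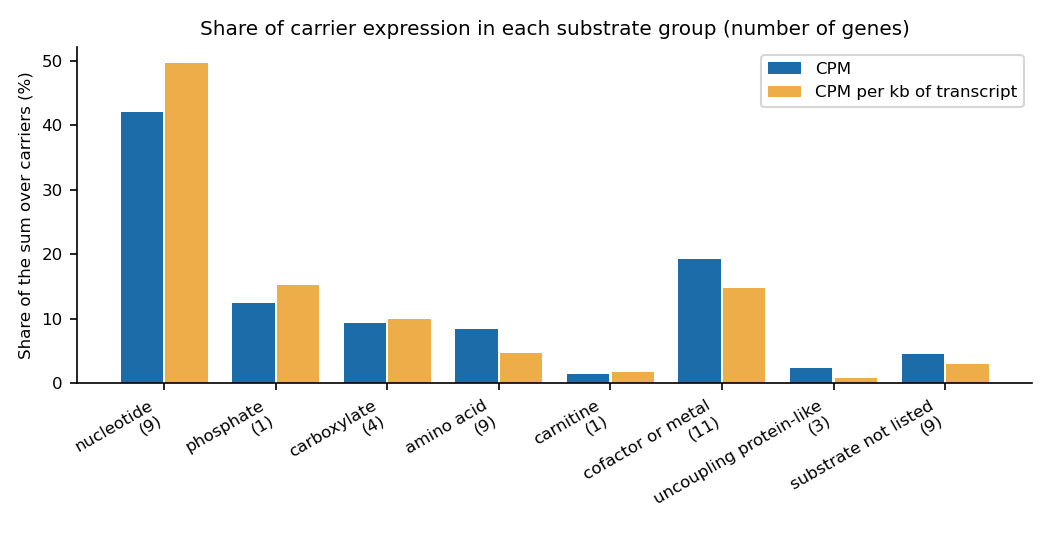
Share of the sum over all 47 carriers held by each substrate group (y axis, %), in CPM (blue) and in CPM per kb of transcript (yellow), with the number of genes in brackets. The nucleotide group held 42.0% and 49.6%, while the amino acid group, with as many genes, held 8.47% and 4.75%.

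The 9 amino acid carriers held 8.47% of the summed CPM, and 7 of them reached 1 CPM. The aspartate/glutamate carriers complete the malate-aspartate shuttle, and both forms were present. Citrin (*Slc25a13*) had 12.3 CPM per kb (38.4 CPM) and aralar (*Slc25a12*) 5.35 CPM per kb (34.0 CPM), so the level of citrin was 2.30 times that of aralar per kb while their CPM differed by 1.13 times. *Slc25a12* has the longest transcript of the family, 6351 nt. *Slc25a15*, the ornithine/citrulline carrier, had 10.6 CPM per kb (36.4 CPM), and its relative *Slc25a2* was at 0.0743 CPM. *Slc25a44*, which takes branched-chain amino acids into the matrix, had 5.40 CPM per kb (19.3 CPM). *Slc25a38*, a glycine carrier for heme synthesis, had 3.63 CPM per kb (7.39 CPM). Of the glutamate carriers, *Slc25a22* had 2.29 CPM per kb (5.82 CPM) and *Slc25a18* was at 0.0364 CPM. *Slc25a29*, a carrier of basic amino acids, was the lowest of the 7 with 0.789 CPM per kb (1.56 CPM).

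*Slc25a20* alone brings acylcarnitines into the matrix, the step by which long-chain fatty acids reach oxidation. It had 14.4 CPM per kb (25.6 CPM), above 90.3% of genes, and lies on chromosome 9 from 108662088 to 108684641. It ranked 10 in the family per kb and 20 in CPM.

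All 11 carriers of cofactors or metals had at least 1 CPM, and together they held 19.2% of the summed carrier CPM. The glutathione carriers were far apart. *Slc25a39* had 47.7 CPM per kb (80.6 CPM), rank 4 in the family, and *Slc25a40* had 2.55 CPM per kb (7.10 CPM), which is 18.7 times lower than *Slc25a39* per kb. *Slc25a17*, the peroxisomal carrier of coenzyme A, FAD and NAD, had 19.0 CPM per kb (32.8 CPM). The NAD carrier *Slc25a51* had 14.3 CPM per kb (63.6 CPM). Of the coenzyme A carriers, *Slc25a16* had 13.4 CPM per kb (42.2 CPM) and *Slc25a42* 6.48 CPM per kb (22.6 CPM).

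The mitoferrins, which take iron into mitochondria, were *Slc25a28* with 5.69 CPM per kb and *Slc25a37* with 3.95 CPM per kb. Their RefSeq mRNAs had 8.73 and 16.5 CPM, so that their order turned with the division by length. Their assembled transcripts had 11.6 and 20.5 CPM. *Slc25a37* is the mitoferrin of red cell precursors, and the red cell genes *Alas2* and *Hba-a1* were at 20.1 and 72.9 CPM in the same kidneys. Their part in the level of *Slc25a37* was not tested. *Slc25a26*, which carries S-adenosylmethionine, had 2.10 CPM per kb (4.04 CPM). *Slc25a32* had 0.942 CPM per kb from its RefSeq mRNA (5.56 CPM), while its assembled transcript had 13.4 CPM.

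Among the uncoupling protein-like carriers, *Slc25a30* (kidney mitochondrial carrier 1) had 5.13 CPM per kb from its RefSeq mRNA (18.4 CPM), while its assembled transcript had 36.3 CPM. *Slc25a14* (UCP5) and *Slc25a27* (UCP4), which are best known from brain, had 1.25 and 0.888 CPM per kb (2.19 and 2.57 CPM). Of the 9 carriers to which no substrate was given here, 7 reached 1 CPM. *Slc25a46* had 8.01 CPM per kb, *Slc25a35* 7.05 CPM per kb (13.0 CPM), *Slc25a45* 5.15 CPM per kb (13.3 CPM) and *Slc25a34* 3.30 CPM per kb (8.80 CPM). *Slc25a48* had 0.995 CPM per kb (3.70 CPM). *Slc25a53* and *Slc25a47* were just inside the minimum with 1.16 and 1.11 CPM, and *Slc25a43* was just outside it with 0.656 CPM. *Slc25a54* was the only carrier at the lowest value in the table.

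In 4 places of the genome, carriers lie side by side with no other protein-coding gene between them. *Slc25a43* and *Slc25a5* are 18448 bases apart on the X chromosome, on the same strand, and had levels of 0.562 and 301 CPM per kb. *Slc25a41* ends 2056 bases from *Slc25a23* on chromosome 17, on the same strand, and they had 0.0250 and 17.9 CPM per kb. *Slc25a54* and *Slc25a24* are 6461 bases apart on chromosome 3, on the same strand, with 0.0157 and 5.07 CPM per kb. In each of these 3 pairs one neighbour was among the carriers under 1 CPM. Of these, *Slc25a54* was at the lowest value in the table and *Slc25a41* near it. Their values per kb cannot be told from no expression. *Slc25a29* and *Slc25a47* lie on opposite strands of chromosome 12, 162 bases apart, and both were low, with 0.789 and 0.428 CPM per kb.

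Several carriers were listed with more than 1 transcript. For 26 of the 47 genes there were 2 to 6 transcripts, and 40 of the 103 transcripts had been assembled from the reads rather than taken from RefSeq. How reads in shared exons were counted is not given in the sources used here. A read may count for each transcript that holds its exon. Similar levels of a gene's transcripts therefore do not show that these forms were equally abundant. In 20 of the 26 genes the highest and lowest transcript differed by less than 1.5 times. *Slc25a20* and *Slc25a26* had the same level in both transcripts. In 4 genes the assembled transcript exceeded the highest RefSeq mRNA by at least 1.5 times. *Slc25a32* had 13.4 CPM in the assembled form and 5.56 CPM in the RefSeq form, 2.41 times less. *Slc25a30* had 36.3 and 18.4 CPM, *Slc25a53* 1.16 and 0.710 CPM, and *Slc25a47* 1.11 and 0.676 CPM. In *Slc25a13* it was the assembled form that was lower, with 18.5 against 38.4 CPM.

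**Figure D4:**
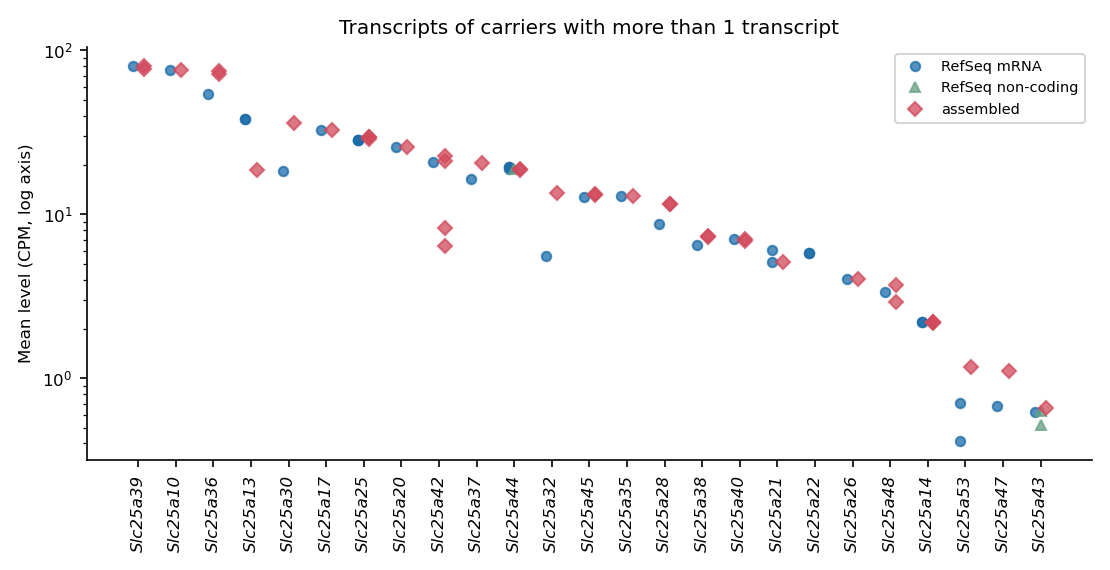
Mean level in CPM (log axis) of every transcript of 25 carriers with more than 1 transcript, by origin of the transcript. In most of them the points lie within 1.5 times of each other, while *Slc25a30*, *Slc25a32* and *Slc25a13* show assembled and RefSeq forms apart.

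The other mitochondrial transporters give a scale for these levels. Of 15 such genes, 14 reached 1 CPM, with a median of 25.1 CPM per kb. The outer membrane channel *Vdac1* had 117 CPM per kb, and *Mpc1*, a subunit of the pyruvate carrier, 114 CPM per kb, both below *Slc25a3* at 129 CPM per kb. *Mpc2*, its partner subunit, had 46.5 CPM per kb. *Ucp2* had 16.2 CPM per kb, *Ucp1* 12.1 CPM per kb and *Ucp3* 0.392 CPM per kb.

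The tissue showed the genes that define a kidney. The proximal tubule genes *Slc34a1* and *Lrp2* had 423 and 36.7 CPM per kb, the thick ascending limb gene *Umod* 374 CPM per kb, and the collecting duct gene *Aqp2* 52.2 CPM per kb. All 4 brown fat genes looked at were also above 1 CPM, from 1.15 CPM per kb (*Ppargc1b*) to 12.1 CPM per kb (*Ucp1*). *Ppargc1b* is expressed in other tissues too, while *Ucp1* defines brown fat. *Slc25a4*, *Slc25a20* and *Slc25a44* are also active in brown fat, and the part of such cells in their levels was not tested. The 4 skeletal muscle genes were at 0.0263 to 0.0890 CPM, at or near the lowest value. *Slc25a4*, the ADP/ATP carrier that prevails in heart and muscle, had 146 CPM, and the part of muscle cells in this level was not tested. In whole-kidney RNA, fewer cells of a type and less RNA per cell cannot be told apart.

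**Figure D5:**
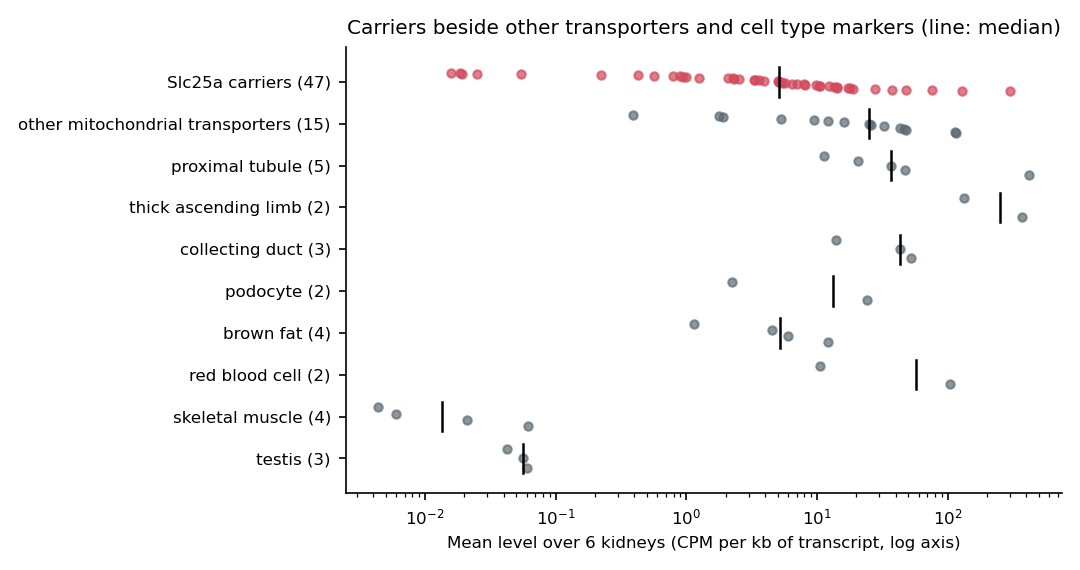
Mean level over the 6 kidneys in CPM per kb of transcript (log axis) for the 47 carriers and for genes of other lists, 1 point per gene, with the median as a line and the number of genes in brackets. The carriers spread from the level of skeletal muscle genes up to that of thick ascending limb genes, around a median of 5.15 CPM per kb. Genes at the lowest value in CPM, such as the testis genes, differ on this axis only by transcript length.

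The promoters of the carriers were compared with those of all genes, from 250 bases before to 50 bases after the start in RefSeq (GRCm38.p6). A promoter was found for 36 of the 47 carriers, 46 promoters in all. Where a gene had several, its highest GC content was taken, and a motif counted if any of them held it. The 27025 genes compared outnumber the 20470 genes with a RefSeq mRNA and were not matched to the carriers in kind. Their GC content ranged from 43% (*Slc25a21*) to 79% (*Slc25a15* and *Slc25a40*) with a median of 60.5%, against 53.3% in 27025 genes, and 33 of the 36 (91.7%) were above 50%, against 61.2% of all genes. An E-box, the letters CACGTG (the same on both strands) bound by Myc and its relatives among others, was present in 7 carriers (19.4%) and in 8.09% of all genes. The 7 were *Slc25a1*, *Slc25a13*, *Slc25a14*, *Slc25a15*, *Slc25a31*, *Slc25a33* and *Slc25a36*. The letters AAGGTCA, read by estrogen-related receptors, were present on either strand in *Slc25a34* alone (2.78%, against 5.38% of all genes). GCGCATGC, the core of the NRF-1 motif, was present on either strand in *Slc25a31* and *Slc25a54* (5.56%, against 3.05%). These are letters in a window and show no binding, and the motif shares were not adjusted for the GC content of the promoters.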

How the data were processed

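Total RNA of 6 whole kidneys (3 SKO, 3 DKO) was sequenced by the authors as 51 bp single-end reads from strand-specific libraries. They cut off poor read ends, aligned to mm10 with TopHat and kept only alignments whose mapping quality was at least 10. The submitters' processing notes name TopHat2 2.0.12, Cufflinks, featureCounts of Subread 1.4.6 and edgeR 3.2.4. The strand setting of the counting is not given in the sources used here.

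The deposited log2 CPM of the authors is a mean over all 6 kidneys for each of 54721 transcripts. The lowest value, 0.0263 CPM, was shared by 4617 transcripts. The 4 other numeric columns hold the authors' comparison of DKO with SKO (fold change, test statistic, p-value, adjusted p-value) and were not used. The planned test between the groups was therefore not run. Read totals per kidney are unknown, and no interval was set.

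Values were turned to CPM with Python 3.11.15, numpy 2.4.6 and pandas 2.3.3. A gene was represented by its highest transcript. Lengths and 3′-UTRs came from GENCODE M21 (GRCm38, the assembly of mm10), using the longest coding transcript matched to the gene's highest RefSeq mRNA, 46 carriers by RefSeq identifier and 1 by symbol. Every such transcript, over all genes, had a stop codon just before its 3′-UTR. The match and 3′-UTR length functions were tested on simulated data. The coordinate function was tested there only at the end of the transcript, and not for matches inside it. Every carrier is named except 1, which is not reported here by itself and enters the counts and sums only. Those with at least 1 CPM have their values given. Other genes come from lists written by hand. The members and lists were chosen with earlier results of these data known. Alternatives were the sum over transcripts, RefSeq mRNAs only, other minimum levels, length, grouping, seed length and the longest 3′-UTR.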

Additional observations from a re-analysis of the deposited data

How the results depend on the processing

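The number of carriers with at least 1 CPM, 41, stayed between 34 (minimum of 5 CPM) and 46 (no minimum) under all 5 alternatives. Under each alternative some shares of summed CPM moved. Divided by length, the nucleotide, phosphate, carboxylate, amino acid and carnitine groups held 49.6%, 15.2%, 9.9995%, 4.75% and 1.69%. This setting also takes the RefSeq mRNA in place of the highest transcript. Under it the uncoupling protein-like group fell from 2.44% to 0.854%, the largest relative move. With RefSeq mRNAs only, not divided by length, that group already held 1.42%. With the sum over transcripts, in which a read may count several times, the same 5 groups held 35.6%, 7.61%, 8.92%, 11.5% and 1.87%. With RefSeq mRNAs only they held 42.2%, 12.8%, 9.74%, 8.73% and 1.57%. With the carriers of coenzyme A, FAD and NAD counted as nucleotide carriers, that group held 52.4% and the cofactor or metal group 8.87% in place of 19.2%. The nucleotide group held the largest share under each of these 4 alternatives. Of the 10 highest carriers per kb, 7 were among the 10 highest in CPM. The number of carriers with a miR-17 match was 6, and became 3 with a following A and 22 with bases 2 to 7, and was again 6 in the longest 3′-UTR. The number with a miR-19 match, 4, was the same with a following A and in the longest 3′-UTR, and became 13 with bases 2 to 7, an alternative chosen after seeing the data. The cause of these moves was not tested. No paired analysis was possible because no value of a single kidney was used. The alternatives planned for the difference between DKO and SKO kidneys (another count test, no filter, leaving out each replicate) were not run for the same reason. Levels near the lowest value, such as those of *Slc25a31*, *Slc25a18* and *Slc25a41*, cannot be told from no expression at an unknown depth.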

Other observations

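The 4 carriers on the X chromosome had unequal levels. *Slc25a5* had 301 CPM per kb of transcript, *Slc25a14* 1.25 CPM per kb, *Slc25a43* 0.562 CPM per kb and *Slc25a53* 0.223 CPM per kb. Chromosome 11 held the most carriers, 5, and all of them had a mean of at least 1 CPM, from 7.05 CPM per kb (*Slc25a35*) to 47.7 CPM per kb (*Slc25a39*).

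The sideroflexins, inner membrane proteins of another family of which *Sfxn1* is a serine carrier, were unequal in the same kidneys. *Sfxn1* had 25.9 CPM per kb, *Sfxn2* 9.42 CPM per kb, *Sfxn3* 5.32 CPM per kb, *Sfxn5* 1.91 CPM per kb and *Sfxn4* 1.77 CPM per kb. The carrier homologues *Mtch1* and *Mtch2* of the outer membrane had 32.7 and 25.1 CPM per kb. The outer membrane channels *Vdac2* and *Vdac3* had 48.0 and 43.3 CPM per kb. The podocyte genes *Nphs1* and *Podxl* had 2.22 and 24.3 CPM per kb.

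*Slc25a42* had the widest spread among its transcripts, from 6.40 to 22.6 CPM over 5 transcripts, 4 of them assembled from the reads. The longest annotated 3′-UTR of a gene was longer than the one used for 7 carriers, of which *Slc25a35* had the largest gap, 2242 against 393 nt, with no seed match of the cluster in either.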
